A study of Mus musculus with 8 samples.

Results

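The mitochondrial ribosomal proteins studied here are the products of nuclear genes whose symbol is Mrpl or Mrps followed by digits and at most 1 letter. The rule found 77 genes among the 35976 of the table, 48 named for the large subunit (Mrpl) and 29 named for the small subunit (Mrps). RNA was sequenced from C2C12 cells, a mouse myoblast line grown in culture. The 4 libraries called Atad2 shRNA came from cells given a short hairpin RNA against Atad2, a chromatin-bound ATPase with a bromodomain. The 4 control shRNA libraries came from cells given a non-targeting hairpin, so both groups were transfected. Total RNA was taken 48 h after transfection, and the labels give no other treatment, genotype or differentiation step and do not say whether replicates were separate cultures, so a p-value here covers the spread among the libraries and nothing wider.

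The mitochondrial ribosome translates the few messages that mitochondrial DNA encodes, all of them for subunits of the oxidative phosphorylation machinery. Its RNAs come from mitochondrial DNA, while its proteins are made in the cytosol and imported. The small subunit holds the message and the decoding site, and the large subunit joins amino acids and passes the chain through its exit tunnel to the inner membrane. Some of the proteins have bacterial counterparts and others are found only in mitochondrial ribosomes. In skeletal muscle this translation is needed for respiration, and its genes are commonly linked to the nuclear factors NRF1 and GABP, an ETS-family factor, and to the PGC-1 coactivators.

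Each gene's value in a library, called its log2 level below, is log2 of its size-factor-scaled read count plus 1. Depth was 50.3 to 72.3 Mreads (megareads) in Atad2 shRNA libraries and 61.4 to 73.0 Mreads in control shRNA libraries. The floor of 3 reads was 0.0411 to 0.0596 reads per Mread, and this covers counting error only. Atad2 itself, the targeted gene, had log2 levels of 11.87, 11.77, 12.05 and 12.05 in Atad2 shRNA libraries, against 14.66, 14.74, 14.67 and 14.61 in control shRNA libraries. Every Atad2 shRNA library was below every control shRNA library, and the level was 6.66-fold lower (log2 fold change -2.73 ± 0.05 (SE), limma adjusted p = 4.6e-20). The first principal component took 65.1% of the variance and parted the groups, and the second took 8.29% and set Atad2 shRNA replicate 3 apart from the other libraries. All 4 myoblast markers were present. Myod1 lay at 12.76 to 12.91 and Des at 15.05 to 15.18 in Atad2 shRNA libraries, above the 12.54 to 12.66 and 14.68 to 14.79 of control shRNA libraries. Cdh15 lay at 11.64 to 11.89 and Myf5 at 8.10 to 8.41 in Atad2 shRNA libraries, below the 12.65 to 12.78 and 9.32 to 9.67 of control shRNA libraries. The epithelial Epcam and the adipocyte Adipoq had 0 reads, and the leukocyte Ptprc had at most 4. Cd68, a macrophage marker, lay at 8.98 to 9.31 in Atad2 shRNA libraries and 7.76 to 8.06 in control shRNA libraries. Cdh1, an epithelial cadherin, lay at 1.84 to 3.88 in Atad2 shRNA libraries and 5.47 to 6.34 in control shRNA libraries, and the endothelial Pecam1 and Cdh5 had at most 14 reads and 1 read. The part of such shifts in the results was not tested.

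Mitochondrial ribosomal protein genes shifted by small amounts in both directions after Atad2 knockdown, more often upward. Of the 77 genes, all with 422 to 8287 reads in every library and all tested, 32 rose, 10 fell and 35 did not pass limma's test at an adjusted p under 0.05. Among all 14703 genes tested, 60.4% passed, 30.8% higher and 29.6% lower. Among the 7152 genes of the same range of mean level (9.17 to 12.69), 64.4% passed, 37.8% higher and 26.6% lower. The members' shares were 41.6% higher and 13% lower, so the higher share lay near that of genes of like level and the lower share lay under it. The members' median log2 fold change was 0.09, from -0.47 for Mrpl3 to 0.51 for Mrps18a, against -0.01 over all genes tested and 0.04 over genes of like level. No member differed by 2-fold. The libraries of the groups did not overlap for 27 members that were higher and 8 that were lower, which is 35.1% and 10.4% of them. Such a gap was found in 53.5% of all genes tested (27.7% higher and 25.8% lower) and in 57.1% of genes of like level (33.7% higher and 23.4% lower). Without Atad2 shRNA replicate 3 the counts were 33 higher and 8 lower, where 29.7% of all genes tested were higher and 28.7% lower. In bulk RNA, fewer cells that use a gene and less of its RNA per cell cannot be told apart.

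**Figure D1:**
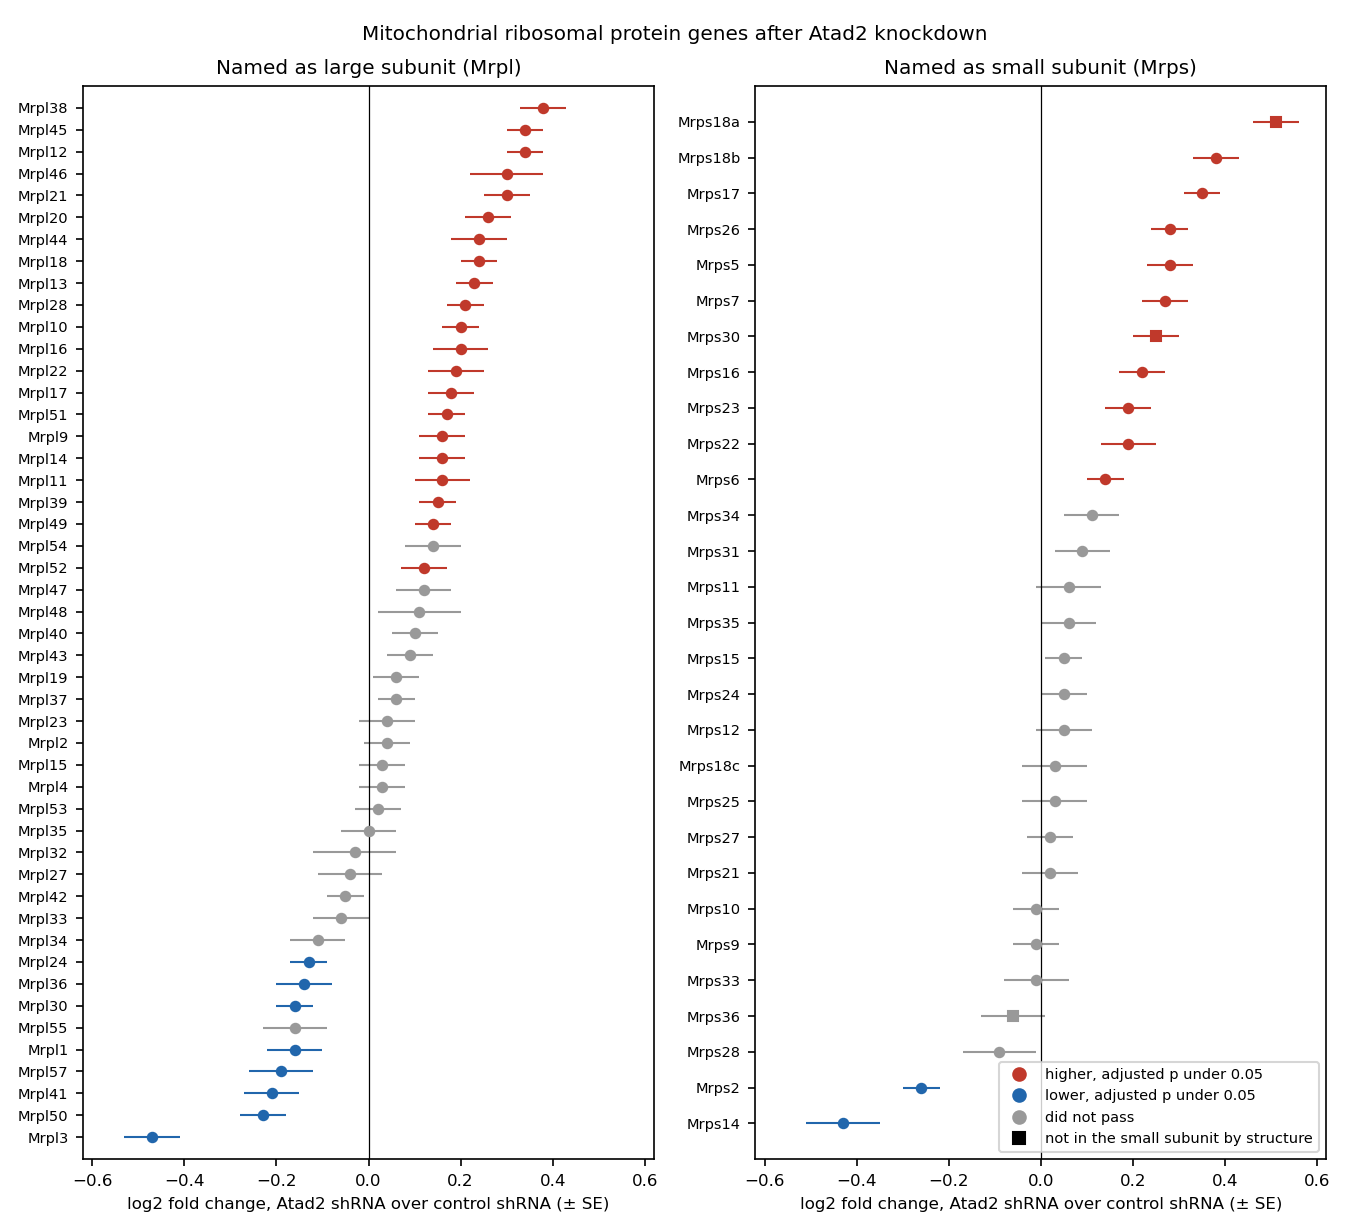
Log2 fold change of each of the 77 genes, Atad2 shRNA over control shRNA (point and SE, 4 libraries each), ordered within the Mrpl and Mrps names and coloured by limma's call. The values run from -0.47 (Mrpl3) to 0.51 (Mrps18a), and squares mark the 3 Mrps genes whose product is not in the small subunit.

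The largest rise of the family was that of Mrps18a, one of the homologues of bacterial protein S18, and a second homologue, Mrps18b, rose as well. Mitochondria of mammals have 3 of them: in human and pig structures the product of Mrps18a sits in the large subunit despite its name, that of Mrps18b in the small subunit away from the place of bacterial S18, and that of Mrps18c at that place. The bases before their RefSeq starts (GRCm38.p6) are shown because the paralogs are alike in origin and differed in response. Capitals mark exact matches to the ETS motif CCGGAAG, the NRF1 half-site TGCGCA (its own reverse complement) or the YY1 motif AAGATGG, on either strand. The Mrps18a window is chr17:46110754-46111003, plus strand, the Mrps18b window is chr17:35916441-35916690, minus strand, and the Mrps18c window is chr5:100798509-100798758, plus strand.
Mrps18a: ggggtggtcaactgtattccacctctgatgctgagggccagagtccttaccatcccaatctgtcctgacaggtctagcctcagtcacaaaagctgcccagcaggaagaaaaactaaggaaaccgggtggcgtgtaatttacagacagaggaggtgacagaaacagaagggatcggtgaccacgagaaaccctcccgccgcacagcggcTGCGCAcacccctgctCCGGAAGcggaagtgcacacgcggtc
Mrps18b: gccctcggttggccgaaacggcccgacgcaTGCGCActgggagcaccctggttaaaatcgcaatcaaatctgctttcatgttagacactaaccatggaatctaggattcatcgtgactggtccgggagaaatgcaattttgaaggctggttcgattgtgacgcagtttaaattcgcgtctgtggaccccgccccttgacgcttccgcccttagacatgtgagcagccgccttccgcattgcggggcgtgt
Mrps18c: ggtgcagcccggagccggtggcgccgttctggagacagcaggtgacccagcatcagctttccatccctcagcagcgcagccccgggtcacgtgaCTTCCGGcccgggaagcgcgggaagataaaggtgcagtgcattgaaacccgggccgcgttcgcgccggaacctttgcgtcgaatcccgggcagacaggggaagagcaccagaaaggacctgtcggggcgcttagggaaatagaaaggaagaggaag
The Mrps18a window holds an NRF1 half-site 42 bases before the start and an ETS motif 26 bases before it. The Mrps18b window holds an NRF1 half-site 220 bases before the start, and the Mrps18c window an ETS motif 156 bases before it, read on the other strand. Matches after the start (a YY1 motif in Mrps18a, an NRF1 half-site and an ETS motif in Mrps18b) are not shown.

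Mrps18a (chr17:46110986-46128910) had log2 levels of 11.66, 11.62, 11.46 and 11.59 in Atad2 shRNA libraries, against 11.12, 10.95, 11.05 and 11.15 in control shRNA libraries. All Atad2 shRNA libraries lay above all control shRNA libraries, and the gene rose 1.43-fold (log2 fold change 0.51 ± 0.05 (SE), limma adjusted p = 3.4e-08). Mrps18b (chr17:35910379-35916389) had 11.63, 11.51, 11.45 and 11.39 in Atad2 shRNA libraries and 11.13, 11.12, 11.03 and 11.21 in control shRNA libraries. Again the groups did not overlap, and the gene rose 1.3-fold (0.38 ± 0.05, adjusted p = 3.1e-06). Mrps18c (chr5:100798627-100804471) had 10.09, 9.92, 9.99 and 9.83 in Atad2 shRNA libraries and levels between 9.83 and 10.03 in the 4 control shRNA libraries. These groups overlapped, and the difference of 0.03 (adjusted p = 0.7) had a 95% interval of -0.12 to 0.19.

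The ratios between the paralogs within a library were compared as well, as differences of log2 levels over 3 pairs. Mrps18a minus Mrps18c was 1.62 ± 0.13 in Atad2 shRNA libraries and 1.15 ± 0.11 in control shRNA libraries (SD, n = 4 each; exact two-sided permutation p = 0.0286, the smallest that 4 against 4 allows, 0.0429 adjusted over the pairs). Mrps18b minus Mrps18c was 1.54 ± 0.06 in Atad2 shRNA libraries and 1.20 ± 0.13 in control shRNA libraries, with the same exact p. Both ratios thus lay higher in all 4 Atad2 shRNA libraries than in any control shRNA library. Mrps18a minus Mrps18b was 0.09 ± 0.08 in Atad2 shRNA libraries and -0.05 ± 0.08 in control shRNA libraries, a difference of 0.14 that did not pass (exact p = 0.0571). The genes were chosen with their changes known, so these ratios describe the same measurements and add no independent support.

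**Figure D2:**
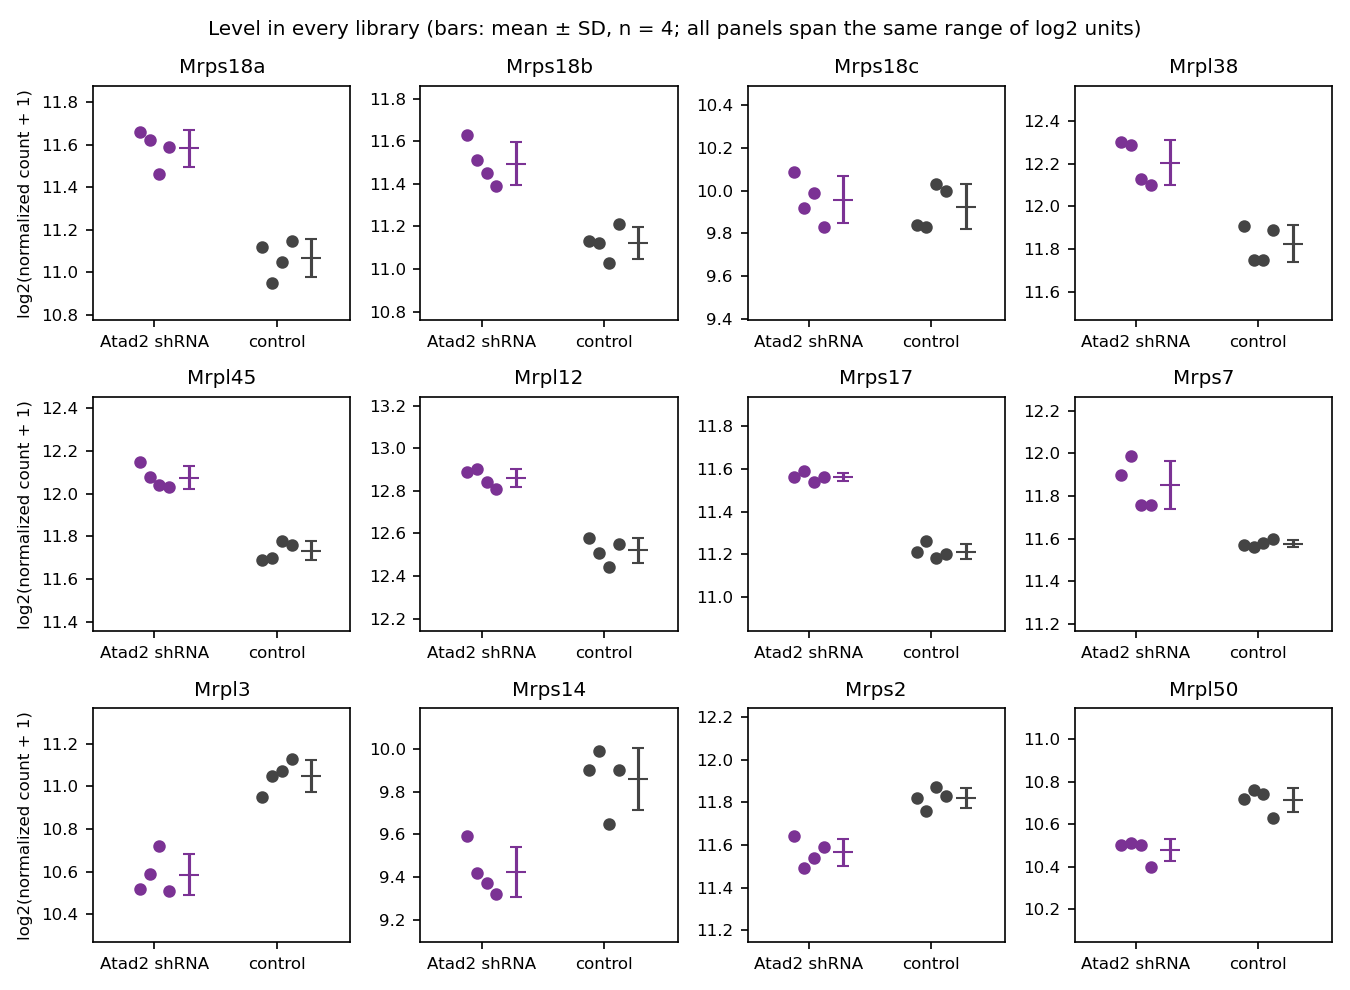
Log2 level, log2(normalized count + 1), of 12 genes in each of the 4 Atad2 shRNA libraries (left of each panel) and the 4 control shRNA libraries (right), with mean and SD. Mrps18c is the single panel whose groups overlap; Mrpl3, Mrps14, Mrps2 and Mrpl50 are lower in Atad2 shRNA libraries and the other 7 are higher.

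The genes of the large subunit are given by the site of their product. Each site has 5 to 7 genes, too few for its counts to be read against the 37.8% higher and 26.6% lower of genes of like level. The stalk proteins recruit translation factors to the ribosome, and of 5 such genes (Mrpl10, Mrpl11, Mrpl12, Mrpl53 and Mrpl54) 3 rose and 2 did not pass, with a median log2 fold change of 0.16. Mrpl12 encodes the stalk protein that contacts these factors, and in human cells it has also been reported to bind the mitochondrial RNA polymerase. Mrpl12 (chr11:120484613-120489065) had log2 levels of 12.89, 12.90, 12.84 and 12.81 in Atad2 shRNA libraries, against 12.58, 12.51, 12.44 and 12.55 in control shRNA libraries. The groups did not overlap and the gene rose 1.27-fold (0.34 ± 0.04, limma adjusted p = 9e-08). Per kilobase of annotated transcript, Mrpl12 stood at rank 4 of the 77 genes in control shRNA libraries, with normalized counts of 5645 ± 154 per kilobase in Atad2 shRNA libraries and 4462 ± 189 in control shRNA libraries (SD). Mrpl10, which ties the stalk to the ribosome's body, rose by 0.20 ± 0.04 (adjusted p = 0.00016), and Mrpl11, at the stalk base, rose by 0.16 ± 0.06 (adjusted p = 0.024), with overlapping groups and a call lost under 6 of 19 alternatives.

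The central protuberance is the crown of the large subunit that faces the small one. Of its 5 genes 3 rose (Mrpl38, Mrpl46 and Mrpl18, whose exons overlap those of Tcp1) and 2 did not pass (Mrpl40 and Mrpl48), with a median of 0.24. Mrpl38, found only in mitochondrial ribosomes, had log2 levels of 12.30, 12.29, 12.13 and 12.10 in Atad2 shRNA libraries, against 11.91, 11.75, 11.75 and 11.89 in control shRNA libraries. It was the Mrpl gene with the largest rise, 1.3-fold (0.38 ± 0.05, limma adjusted p = 1.4e-06), and its groups did not overlap. Mrpl46, also particular to mitochondria, had 9.50, 9.67, 9.79 and 9.61 in Atad2 shRNA libraries and 9.26, 9.31, 9.37 and 9.45 in control shRNA libraries. The lowest Atad2 shRNA library lay just above the highest control shRNA library, and the gene rose by 0.30 ± 0.08 (adjusted p = 0.0029). Its exons overlap those of Mrps11, a small-subunit gene on the other strand with a difference of 0.06 (95% interval -0.09 to 0.20). Since no source used here states the strand setting of the counting, reads of such a pair may have been shared or left out.

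The proteins around the exit tunnel lie where the new chain leaves and where the ribosome meets the inner membrane. Of 7 such genes 4 rose (Mrpl22, Mrpl39, Mrpl44 and Mrpl45), 1 fell (Mrpl24) and 2 did not pass (Mrpl23 and Mrpl47), with a median of 0.15. The exons of Mrpl44 overlap those of Wdfy1. Mrpl45, whose product anchors the large subunit to the inner membrane, had log2 levels of 12.15, 12.08, 12.04 and 12.03 in Atad2 shRNA libraries, against 11.69, 11.70, 11.78 and 11.76 in control shRNA libraries. The groups were well apart and the gene rose 1.27-fold (0.34 ± 0.04, limma adjusted p = 2.3e-07). Mrpl24, homologue of a bacterial protein at the tunnel's mouth, had 11.73, 11.76, 11.68 and 11.75 in Atad2 shRNA libraries and 11.77, 11.91, 11.87 and 11.88 in control shRNA libraries. It fell by 0.13 on the log2 scale (SE 0.04, adjusted p = 0.011), the groups parted by a narrow margin, and its exons overlap those of Rrnad1. The Mrpl45 window, chr11:97315466-97315715, plus strand, is shown because it holds NRF1 half-sites 121 and 39 bases before the start, in the same capitals.
Mrpl45: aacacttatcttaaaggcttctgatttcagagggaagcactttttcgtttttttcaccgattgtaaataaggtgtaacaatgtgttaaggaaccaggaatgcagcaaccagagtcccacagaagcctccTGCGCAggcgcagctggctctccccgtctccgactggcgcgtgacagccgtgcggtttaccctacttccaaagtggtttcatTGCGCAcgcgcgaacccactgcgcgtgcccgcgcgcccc

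The genes nearest the peptidyl transferase centre, where peptide bonds form, moved in both directions. Of Mrpl2, Mrpl3, Mrpl4, Mrpl16 and Mrpl27, 1 rose, 1 fell and 3 did not pass, with a median of 0.03. Mrpl3 (chr9:105053239-105079888) encodes the counterpart of bacterial L3, which reaches into that centre, and had the largest fall of the family. Its log2 levels were 10.52, 10.59, 10.72 and 10.51 in Atad2 shRNA libraries, against 10.95, 11.05, 11.07 and 11.13 in control shRNA libraries. The groups did not overlap, and the gene was 1.38-fold lower (-0.47 ± 0.06, limma adjusted p = 5e-07). Mrpl16, counterpart of bacterial L16, had 10.81, 10.76, 10.64 and 10.79 in Atad2 shRNA libraries and 10.67, 10.50, 10.49 and 10.55 in control shRNA libraries. It rose by 0.20 ± 0.06 (adjusted p = 0.0052), with 1 Atad2 shRNA library below the highest control shRNA library. The Mrpl3 window, chr9:105053018-105053267, plus strand, is shown as that of the gene with the largest fall and holds an ETS motif 19 bases before the start.
Mrpl3: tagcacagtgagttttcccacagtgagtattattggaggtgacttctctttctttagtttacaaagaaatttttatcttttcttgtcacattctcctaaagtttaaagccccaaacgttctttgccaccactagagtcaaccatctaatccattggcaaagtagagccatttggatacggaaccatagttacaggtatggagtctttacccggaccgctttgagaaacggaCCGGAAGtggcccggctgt

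Other large-subunit genes that rose include Mrpl21 and Mrpl20, counterparts of rRNA-binding proteins of the bacterial large subunit. Mrpl21 had log2 levels of 10.87, 10.85, 10.96 and 10.73 in Atad2 shRNA libraries, against 10.60, 10.56, 10.52 and 10.54 in control shRNA libraries, and Mrpl20 had 11.34, 11.30, 11.39 and 11.26 in Atad2 shRNA libraries, against 11.16, 10.99, 11.01 and 11.11 in control shRNA libraries. Neither gene's groups overlapped. Mrpl21 rose by 0.30 ± 0.05 (limma adjusted p = 8.6e-05) and shares exon sequence with the helicase gene Ighmbp2, which fell by 0.18 (adjusted p = 0.013). Mrpl20 rose by 0.26 ± 0.05 (adjusted p = 0.00014). Mrps30, which despite its symbol encodes a protein of the large subunit, rose by 0.25 ± 0.05 (adjusted p = 0.00023), with 11.82, 11.72, 11.70 and 11.66 in Atad2 shRNA libraries and 11.45, 11.37, 11.44 and 11.63 in control shRNA libraries. Its highest control shRNA library came within a narrow margin of the lowest Atad2 shRNA library, and its exons overlap those of B430218F22Rik.

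Among the large-subunit genes that fell, Mrpl50 and Mrpl41 encode proteins found only in mitochondrial ribosomes, and Mrpl30 and Mrpl36 have bacterial counterparts. Mrpl50 had log2 levels of 10.50, 10.51, 10.50 and 10.40 in Atad2 shRNA libraries, against 10.72, 10.76, 10.74 and 10.63 in control shRNA libraries, and fell by 0.23 (SE 0.05, limma adjusted p = 0.00074). Mrpl41 had 10.01, 10.07, 9.91 and 10.01 in Atad2 shRNA libraries and 10.29, 10.28, 10.15 and 10.14 in control shRNA libraries, and fell by 0.21 (SE 0.06, adjusted p = 0.0063). In both genes every Atad2 shRNA library was below every control shRNA library. Mrpl30 fell by 0.16 (SE 0.04, adjusted p = 0.0028), with levels of 11.53 to 11.65 in Atad2 shRNA libraries and 11.68 to 11.81 in control shRNA libraries. Mrpl36 lay at 10.27 to 10.35 in Atad2 shRNA libraries and 10.37 to 10.54 in control shRNA libraries. Its fall of 0.14 (SE 0.06, adjusted p = 0.042) was less firm than those of Mrpl50, Mrpl41 and Mrpl30. The call was lost under 7 of 19 alternatives, with adjusted p-values from 0.028 to 0.14, and at a threshold of 0.01. The exons of Mrpl36 overlap those of Ndufs6, a subunit of complex I.

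In the small subunit, genes of the decoding region and message channel also moved in both directions. Of Mrps2, Mrps5, Mrps7, Mrps9 and Mrps12, 2 rose, 1 fell and 2 did not pass, with a median of 0.05. These 5 genes are too few to be read against the 37.8% higher and 26.6% lower of genes of like level. Mrps7, the counterpart of bacterial S7, which organises the head near the messenger's exit, had log2 levels of 11.90, 11.99, 11.76 and 11.76 in Atad2 shRNA libraries, against 11.57, 11.56, 11.58 and 11.60 in control shRNA libraries. The control shRNA libraries were close together, all Atad2 shRNA libraries lay above them, and the gene rose by 0.27 ± 0.05 (limma adjusted p = 5e-05). Its exons overlap those of Gga3 and Mif4gd. Mrps5, the counterpart of a bacterial protein at the messenger's entry, had 11.10, 11.10, 11.03 and 11.02 in Atad2 shRNA libraries and 10.77, 10.70, 10.84 and 10.83 in control shRNA libraries. It rose by 0.28 ± 0.05 (adjusted p = 5.2e-05) with no overlap between the groups. The Mrps7 window, chr11:115603890-115604139, plus strand, is shown as a small-subunit example with an NRF1 half-site, 62 bases before the start.
Mrps7: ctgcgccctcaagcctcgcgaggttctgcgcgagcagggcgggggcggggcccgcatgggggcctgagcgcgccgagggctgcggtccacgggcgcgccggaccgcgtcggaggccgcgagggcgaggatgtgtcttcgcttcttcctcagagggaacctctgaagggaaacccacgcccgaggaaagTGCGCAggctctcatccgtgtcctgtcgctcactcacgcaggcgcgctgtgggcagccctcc

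Mrps2, the counterpart of bacterial S2, had log2 levels of 11.64, 11.49, 11.54 and 11.59 in Atad2 shRNA libraries, against 11.82, 11.76, 11.87 and 11.83 in control shRNA libraries. The groups did not overlap and the gene fell by 0.26 (SE 0.04, limma adjusted p = 2.3e-05). Mrps14, the counterpart of bacterial S14 in the head, had 9.59, 9.42, 9.37 and 9.32 in Atad2 shRNA libraries and 9.90, 9.99, 9.65 and 9.90 in control shRNA libraries. It was 1.35-fold lower (-0.43 ± 0.08, adjusted p = 0.00014), and the lowest control shRNA library lay near the highest Atad2 shRNA library. Mrps2 and Mrps14 were the only Mrps genes of the 29 that fell.

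Mrps17, counterpart of an rRNA-binding bacterial protein, had log2 levels of 11.56, 11.59, 11.54 and 11.56 in Atad2 shRNA libraries, against 11.21, 11.26, 11.18 and 11.20 in control shRNA libraries. The libraries of each group were nearly level with each other, and the gene rose 1.27-fold (0.35 ± 0.04, limma adjusted p = 2.9e-07). Mrps26, found only in mitochondrial ribosomes, had 11.57, 11.62, 11.59 and 11.62 in Atad2 shRNA libraries and 11.34, 11.23, 11.32 and 11.40 in control shRNA libraries, and rose by 0.28 ± 0.04 (adjusted p = 1.6e-05). At the other end, the 3 members with the highest adjusted p were Mrps10 and Mrps33 of the small subunit and Mrpl35 of the large subunit. The difference was -0.01 for Mrps10 (95% interval -0.11 to 0.10, adjusted p = 0.9), -0.01 for Mrps33 (-0.16 to 0.14, adjusted p = 0.94) and 0.00 for Mrpl35 (-0.14 to 0.13, adjusted p = 0.96). Mrps36, whose product is a part of the oxoglutarate dehydrogenase complex and not of the ribosome, had 10.34, 10.25, 10.09 and 10.40 in Atad2 shRNA libraries and 10.25, 10.39, 10.37 and 10.33 in control shRNA libraries. The groups overlapped, and the difference of -0.06 did not pass (95% interval -0.20 to 0.08, adjusted p = 0.43).

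The other 12 genes that rose did so by 0.12 to 0.23 on the log2 scale. They were Mrpl9, Mrpl13, Mrpl14, Mrpl17, Mrpl28, Mrpl49, Mrpl51 and Mrpl52 of the large subunit and Mrps6, Mrps16, Mrps22 and Mrps23 of the small subunit. The exons of Mrpl9, Mrpl13, Mrpl14, Mrpl49 and Mrps6 overlap those of another coding gene, so their reads may have been shared or left out. With genes of every type counted, the exons of 32 members overlap those of another gene, against 23 for coding genes alone. Among the 32 are Mrps18b, Mrps18c, Mrpl3, Mrpl10, Mrpl12 and Mrps26, which overlap only genes not annotated as protein-coding. Mrpl52, found only in mitochondrial ribosomes, had the highest level per kilobase of the 77 genes, with normalized counts of 7842 ± 459 per kilobase in Atad2 shRNA libraries and 7199 ± 498 in control shRNA libraries (SD). Its rise of 0.12 ± 0.05 (limma adjusted p = 0.044) came with overlapping groups and was lost under 9 of 19 alternatives. The other 2 genes that fell were Mrpl57, by 0.19 (SE 0.07, adjusted p = 0.022), and Mrpl1, by 0.16 (SE 0.06, adjusted p = 0.042), both with overlapping groups. Mrpl57 encodes a protein found only in mitochondrial ribosomes and Mrpl1 has a bacterial counterpart, and the call of Mrpl1 was lost under 10 of 19 alternatives. The 35 genes that did not pass had differences from -0.16 (Mrpl55, 95% interval -0.32 to -0.01, adjusted p = 0.061) to 0.14 (Mrpl54, 0.00 to 0.27, adjusted p = 0.071).

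Set side by side, the subunits differed little in how their genes moved. Of the 48 Mrpl genes, 21 rose and 8 fell, 19 did not pass, and the median log2 fold change was 0.10. Of the 29 Mrps genes, 11 rose and 2 fell, 16 did not pass, and the median was 0.06. These are shares of 43.8% higher and 16.7% lower in Mrpl genes and 37.9% and 6.9% in Mrps genes, beside 37.8% and 26.6% of genes of like level. The order of the medians depended on the scaling: with cyclic loess it was 0.06 in Mrpl genes and 0.08 in Mrps genes, and with quantile normalization 0.07 and 0.08. Without genes whose exons overlap another coding gene both medians were 0.05. Sorted by where the protein sits, 23 of 50 large-subunit genes rose and 8 fell (median 0.11), and 9 of 26 small-subunit genes rose and 2 fell (median 0.05). The mean log2 level of the Mrpl genes minus that of the Mrps genes, within a library, was 0.148, 0.199, 0.169 and 0.170 in Atad2 shRNA libraries and 0.201, 0.234, 0.163 and 0.190 in control shRNA libraries. By structure it was 0.221, 0.266, 0.223 and 0.241 in Atad2 shRNA libraries and 0.235, 0.266, 0.201 and 0.236 in control shRNA libraries. On both counts the groups overlapped, and a difference between the subunits was not tested.

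The ribosomal proteins with bacterial counterparts and those found only in mitochondria had similar counts. Of 48 genes with counterparts 20 rose and 7 fell (median 0.05), and of 28 mitochondria-specific genes, Mrps36 left aside, 12 rose and 3 fell (median 0.11). The shares were 41.7% higher and 14.6% lower with counterparts, and 42.9% and 10.7% in the mitochondria-specific genes. Of genes of like level 37.8% were higher and 26.6% lower, so the higher shares lay near theirs. The mean log2 level over all 77 genes was 10.97, 10.97, 10.92 and 10.93 in Atad2 shRNA libraries and 10.88, 10.86, 10.85 and 10.90 in control shRNA libraries. Together the genes took 0.27% to 0.275% of a library's reads in Atad2 shRNA libraries and 0.262% to 0.27% in control shRNA libraries. The family's mean thus lay slightly higher in all 4 Atad2 shRNA libraries. The median of the 77 fold changes stayed above 0 under the 3 other scalings, at 0.08 with median centring, 0.07 with quantile normalization and 0.07 with cyclic loess. Over all genes tested it was -0.01, 0.01 and 0.00 in that order. Genes of like level had a median of 0.04 on the deposited scale, and theirs under the other scalings are not given here.

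The calls followed the level of the gene, in the family as over all genes. Of the 41 members with a mean log2 level of 9 to 11, 9 rose and 7 fell (median 0.02), where 27.5% of all 3427 genes of that level were higher and 31.5% lower (median -0.02). Of the 36 members at 11 to 13, 23 rose and 3 fell (median 0.16), where 46.9% of all 4453 genes were higher and 22.3% lower (median 0.08). Among all genes the median ran from -0.56 at levels of 3 to 5 up to 0.11 above 13. Over the 77 members Spearman's rho between fold change and mean level was 0.43, against 0.15 with transcript length and 0.17 with the level per kilobase. These are correlations across genes of the same 8 libraries and are given as a description.

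**Figure D3:**
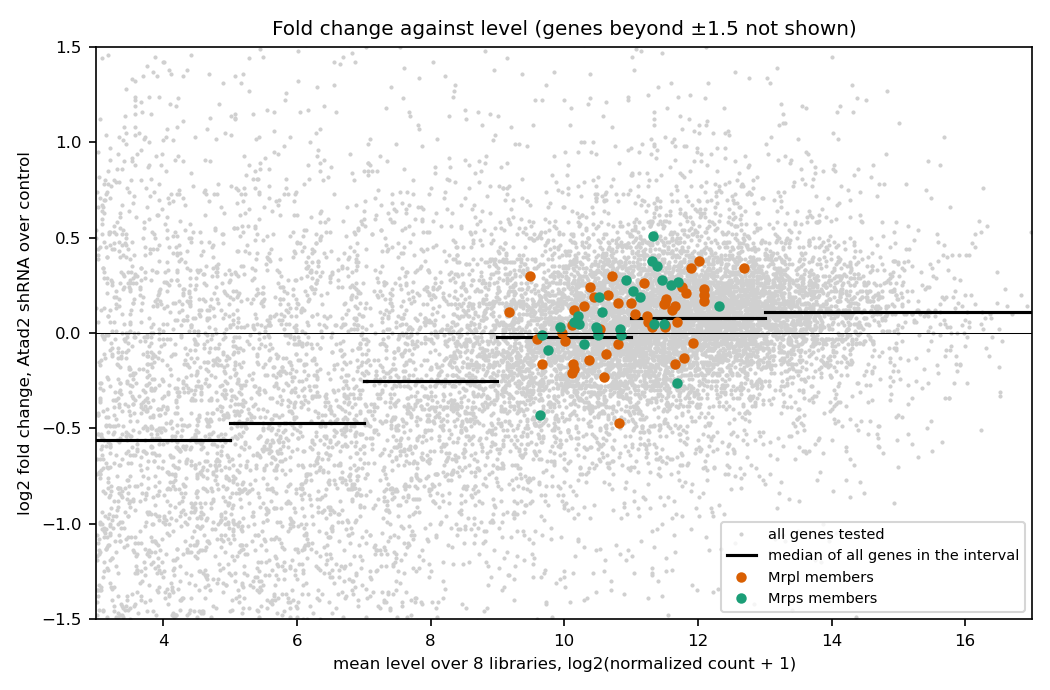
Log2 fold change (Atad2 shRNA over control shRNA) against mean log2 level over the 8 libraries for all genes tested (grey), Mrpl genes (orange) and Mrps genes (green). Black bars are the median of all genes within each interval of level, from -0.56 at the lowest to 0.11 at the highest; genes beyond the vertical limits are not drawn.

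Proteins of the mitochondrial ribosome with other names were also looked up, 6 in all, of which 3 rose and none fell. These are too few to be read against the 37.8% higher and 26.6% lower of genes of like level. Gadd45gip1, a large-subunit protein also known as CRIF1, had log2 levels of 11.65, 11.72, 11.59 and 11.55 in Atad2 shRNA libraries, against 11.18, 11.15, 11.08 and 11.22 in control shRNA libraries. It rose 1.38-fold (0.47 ± 0.05, limma adjusted p = 3.4e-08), and its groups were well apart. The small-subunit genes Chchd1 and Ptcd3 (a pentatricopeptide protein near the messenger's entry) rose by 0.35 ± 0.05 (adjusted p = 5.3e-06) and 0.23 ± 0.04 (adjusted p = 5.4e-05). The GTP-binding Dap3 differed by -0.05 (95% interval -0.14 to 0.04, adjusted p = 0.3) and Aurkaip1 by -0.08 (-0.18 to 0.02, adjusted p = 0.15). Under quantile normalization both passed as lower, Dap3 at -0.11 (adjusted p = 0.022) and Aurkaip1 at -0.14 (adjusted p = 0.013). Ict1 (Mrpl58), a release factor relative built into the large subunit, differed by 0.04 (-0.06 to 0.14, adjusted p = 0.46).

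In assembly and rRNA maturation 8 of 26 genes rose and 6 fell, and the median was -0.05. These shares, 30.8% and 23.1%, lay near the 30.8% and 29.6% of all genes tested. The RNA helicase gene Dhx30 rose by 0.22 ± 0.04 (limma adjusted p = 4.3e-05) and the GTPase gene Noa1, needed for the small subunit, rose by 0.29 ± 0.05 (adjusted p = 0.00011). Mpv17l2, an inner membrane protein needed for the large subunit, fell by 0.28 (SE 0.06, adjusted p = 0.00061) with overlapping groups, and Malsu1, which keeps the large subunit from joining too early, fell by 0.21 (SE 0.06, adjusted p = 0.0073). Of 15 translation factors tested 6 rose and 2 fell (40% and 13.3%, median 0.06). Lrpprc, which stabilises mitochondrial messages, rose by 0.26 ± 0.03 (adjusted p = 3.1e-07), and the elongation factor gene Gfm1 rose by 0.25 ± 0.04 (adjusted p = 4.9e-06). The rescue factor gene Mtrfr, listed as 2810006K23Rik, fell by 0.48 (SE 0.09, adjusted p = 5.9e-05) and the release factor gene Mtrf1l fell by 0.39 (SE 0.12, adjusted p = 0.0075), a call lost with quantile normalization (adjusted p = 0.12) and cyclic loess (0.15).

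Of 17 mitochondrial aminoacyl-tRNA synthetases, the enzymes that charge the tRNAs this ribosome uses, 7 rose, 1 fell and 9 did not pass (41.2% and 5.88%, median 0.12). Among genes within the members' range of level the shares were 37.8% higher, near that of the synthetases, and 26.6% lower. Yars2, for tyrosine, rose 1.39-fold (0.47 ± 0.06, limma adjusted p = 9.5e-07), and Vars2, for valine, rose 1.28-fold (0.35 ± 0.06, adjusted p = 1.7e-05). Among 16 genes of mitochondrial DNA expression and its nuclear regulators 10 rose and 1 fell (62.5% and 6.25%, median 0.21). Their median log2 level was 11.35, and of all genes at levels of 11 to 13, 46.9% were higher and 22.3% lower. The growth-linked factor gene Myc rose by 0.52 ± 0.05 (adjusted p = 3.7e-09), and the mitochondrial DNA helicase gene Twnk, listed as Peo1, rose by 0.48 ± 0.05 (adjusted p = 1.4e-07). Ppargc1a, which encodes the coactivator PGC-1α, had log2 levels of 6.38, 6.04, 6.62 and 6.73 in Atad2 shRNA libraries, against 8.39, 8.64, 8.80 and 8.80 in control shRNA libraries. It was the one gene of the list that fell and the largest change in it, 4.65-fold lower (-2.22 ± 0.16, adjusted p = 3.1e-10), on 68 to 91 reads in Atad2 shRNA libraries and 357 to 526 in control shRNA libraries. A fold change on the log2(x + 1) scale understates the change of low genes, though only slightly at read counts such as these.

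As families for comparison, the cytoplasmic ribosomal proteins rose in 68 of 80 genes tested and fell in 2 (85% and 2.5%), with a median of 0.20. Nuclear-encoded subunits of oxidative phosphorylation, the machinery that the mitochondrial ribosome serves, rose in 15 of 77 and fell in 23 (19.5% and 29.9%), with a median of -0.02. The mitochondrial ribosomal proteins, at 41.6% and 13% with a median of 0.09, lay between these families. The cytoplasmic ribosomal genes had a median log2 level of 14.31, the oxidative phosphorylation genes 11.87 and the mitochondrial ribosomal genes 10.85. Calls differed with level over all genes too. Above a level of 13, 57.8% of all genes were higher and 20.2% lower (median 0.11). At 11 to 13, 46.9% were higher and 22.3% lower (median 0.08). The families thus have unlike backgrounds, and differences between them were not tested.

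**Figure D4:**
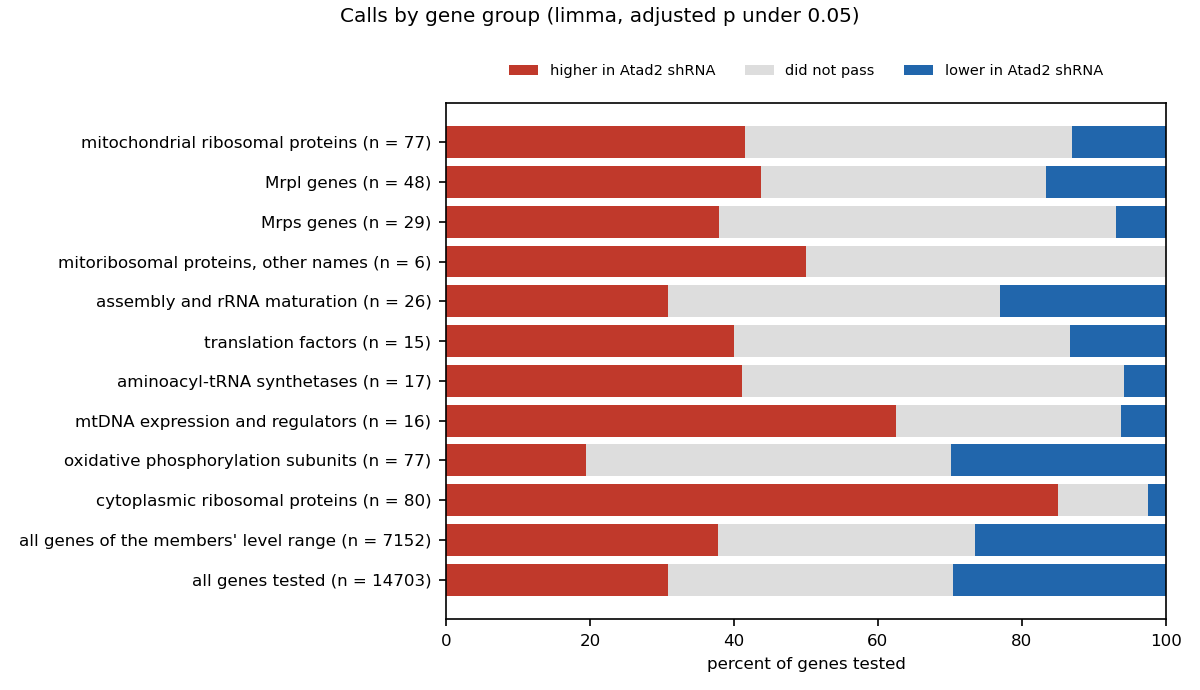
Share of the genes tested in each group (percent, n beside the name) that were higher in Atad2 shRNA libraries (red), did not pass (grey) or were lower (blue) by limma at an adjusted p under 0.05. The 77 mitochondrial ribosomal genes have 41.6% higher and 13% lower, against 30.8% and 29.6% of all genes tested.

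RefSeq windows of 300 bases, 250 before and 50 after the start, were at hand for 68 of the 77 genes. They were searched on both strands for exact matches to the letters spelled out above, and to the E-box CACGTG, a motif of MYC and related factors. The NRF1 half-site TGCGCA was in the windows of 20 of 68 members (29.4%), against 15.5% of genes tested with a window and 8.79% of all genes with one. By call, it was in 14 of 30 members that rose (46.7%), 2 of 10 that fell (20%) and 4 of 28 that did not pass (14.3%). The Mrpl45 and Mrps7 windows printed above were picked for holding it. Mrpl12, Mrpl20, Mrpl21, Mrpl46, Mrps5 and Mrps26 are among the members that rose without it. Among all genes tested the shares were 17.3% of those that rose, 13.2% of those that fell and 15.7% of those that did not pass. The median GC content of the windows was 58.7% in members that rose, 57.8% in those that fell and 59.0% in those that did not pass. The ETS motif was in 25 members (36.8%, against 19.1% of genes tested), in 12 of 30 that rose, 2 of 10 that fell and 11 of 28 that did not pass. The YY1 motif was in 13 members (19.1%, against 8.36%), in 4 of 30 that rose, 1 of 10 that fell and 8 of 28 that did not pass. The E-box was in 5 members (7.35%, against 11.4%), 1 of them among those that rose. No test was made of these shares, a match is not a bound site, and a window without a match says only that these letters are not in it.

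**Figure D5:**
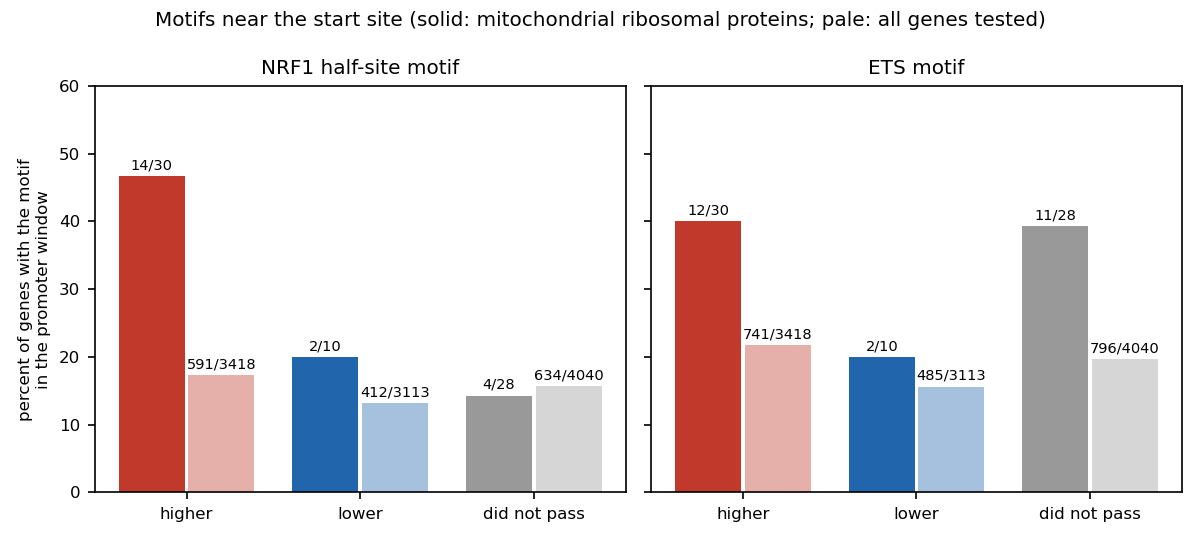
Percent of genes whose promoter window holds the NRF1 half-site (left panel) or the ETS motif (right panel), by limma's call, for mitochondrial ribosomal protein genes (solid) and all genes tested (pale), with counts above the bars. The half-site stands at 46.7% of members that rose, 20% of those that fell and 14.3% of those that did not pass.

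The genes of the factors behind these motifs were read out as well, named here for the motif search and with their values already seen. Nrf1 had log2 levels of 11.87, 11.78, 11.66 and 11.71 in Atad2 shRNA libraries, against 11.56, 11.59, 11.64 and 11.49 in control shRNA libraries. The groups parted narrowly, and the gene rose by 0.19 ± 0.05 (limma adjusted p = 0.0018). Gabpa, the DNA-binding subunit of GABP, had 12.92, 12.90, 12.92 and 12.90 in Atad2 shRNA libraries and 12.63, 12.66, 12.67 and 12.57 in control shRNA libraries. It rose by 0.28 ± 0.03 (adjusted p = 3.6e-07), with the groups well apart. Yy1 differed by 0.09 (95% interval 0.00 to 0.18, adjusted p = 0.091), and passed without Atad2 shRNA replicate 4 (0.13, adjusted p = 0.0052). Ppargc1b, a coactivator related to Ppargc1a, rose by 0.25 ± 0.05 (adjusted p = 0.00041), and Polrmt, the mitochondrial RNA polymerase, rose by 0.22 ± 0.05 (adjusted p = 0.00033). Tfam, which packages mitochondrial DNA and starts its transcription, differed by 0.06 (-0.04 to 0.17, adjusted p = 0.29). Whether any of these factors acted on the ribosomal genes was not tested.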

How the data were processed

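Total RNA of the 8 libraries was sequenced on an Illumina NovaSeq after a strand-keeping second-strand step, per the labels' protocols. The tools named are HTSeq 0.13.5, SAMtools 1.1, DESeq2 without a version and bcl2fastq 2.20, with build mm10, per the submitters' processing notes; aligner, annotation and strandedness of the counting: not given in the sources used here. The authors deposited log2(x + 1) values of normalized counts, rounded to 3 decimals. That form was read from the values: low values of every library, converted back, were whole multiples of a single step within 0.1 reads (100% of at least 4615 values per library), and reads were recovered from that step. Reads of high genes are therefore approximate.

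All genes with a mean above 3 were fitted with limma 3.58.1 in R 4.3.3 (lmFit, eBayes with trend, no covariates), two-sided, with Benjamini-Hochberg adjustment over all genes tested. Single values were compared by exact permutation. Plots were made with matplotlib 3.10.9 and tables with pandas 2.3.3, SciPy 1.17.1 and NumPy 2.4.6 in Python 3.11.15. The fit was also run on simulated counts. Few genes changed in them, against the 60.4% that passed here, so they do not stand in for these data. Gene positions, exon overlaps and transcript lengths came from GENCODE M21 (GRCm38, the assembly of mm10), matched by symbol for all 77 members; the annotated transcript may be longer than the one used. Promoter windows came from RefSeq (GRCm38.p6).

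Named genes are Atad2; per subunit name, up to 6 with the largest rise and 6 with the largest fall among those that passed with no overlap; the 3 with the highest adjusted p; Mrps18a, Mrps18b, Mrps18c, Mrpl12 and Mrps36; per pathway list, up to 2 in each direction by adjusted p; and every ribosomal protein outside the naming rule. Of the genes this rule names, 1 is not reported here. Other genes named were singled out after their values were seen. The 5 pathway lists held 81 symbols, 4 of them found under an older symbol. The genes, lists, motifs, sites and subunit assignments were chosen with earlier results of these data known. Results were recomputed with 3 scalings (median centring, quantile, cyclic loess), an offset of 8, other filters (none, or a mean above 5), other variance models (no trend, a robust prior, library weights, limma-voom on the recovered reads), a replicate block, a threshold of 0.01 and each library left out. Sorting subunits by structure and leaving out genes with exon overlap were chosen after seeing the data. Mitochondrially encoded transcripts were not analysed here.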

Additional observations from a re-analysis of the deposited data

Results flagged for a closer look

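In 3 of the 104 groups of 4 libraries that were checked, over 52 genes, a library lay far from the other libraries of its group relative to the group's range; chance gives about 1 in 20. Mrpl50 was lowest in Atad2 shRNA replicate 4, at a log2 level of 10.40, with the nearest library at 10.50. Mrps33 was highest in Atad2 shRNA replicate 4, at 9.75, with the nearest at 9.65. Chchd1 was highest in Atad2 shRNA replicate 3, at 10.79, with the nearest at 10.75.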

How the results depend on the processing

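No named gene that passed the test changed sign under the alternatives. Of the Mrpl genes, 13 of 21 that rose and 5 of 8 that fell kept their call under all 19 alternatives at an adjusted p under 0.05, as did 9 of 11 and 2 of 2 Mrps genes; none took the opposite call. At an adjusted p under 0.01, 6 members and 4 large-subunit members were lower, and Mrpl24 lost its call there. Of all genes tested, 23.7% were lower at that threshold. Without genes whose exons overlap those of another coding gene, 21 of 54 members and 13 large-subunit members were higher, of fewer genes, and the large-subunit median was 0.05; the genes left out had a median of 0.12 (47.8% higher), those kept 0.05 (38.9%). The large-subunit median was 0.06 with cyclic loess and 0.07 with quantile normalization, and the small-subunit median was 0.08 in both. There 26 and 28 members were higher, where 27.9% and 28.8% of all genes tested were, against 30.8% without rescaling. The cause was not tested. Leaving out each library in turn gave 29 to 33 members higher and 7 to 10 lower. In the same fits 28.8% to 31% of all genes tested were higher and 27.3% to 30% lower. Among large-subunit members 18 to 22 were higher and 5 to 8 lower (5 without control shRNA replicate 4). The large-subunit median was 0.08 to 0.12 and the small-subunit median 0.04 to 0.09 (0.09 without control shRNA replicate 1). Same-numbered libraries of the groups did not deviate together (correlations from -0.02 to 0.03), so the numbers do not pair them. With the replicate block 32 members were higher and 9 lower, where 31% of all genes tested were higher and 29.8% lower. The log2(x + 1) scale, the unknown strand setting and 4 libraries per group limit the precision of changes this small.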

Other observations

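Some of these genes share a start region with a neighbour, and how common this is over all genes was not counted. In the GENCODE M21 annotation 33 of the 77 have a protein-coding gene on the other strand whose start lies within 1000 bp, and the family is spread over 17 chromosomes with at most 10 genes on one. In 30 such pairs both genes were tested: both rose in 6, both fell in 0, the calls were opposite in 5, the ribosomal gene alone passed in 6, the neighbour alone in 9 and neither in 4. Over all genes tested 60.4% passed, 30.8% higher and 29.6% lower. Pairs of other genes were not counted, so these pair counts are a description only. Mrps18b rose by 0.38 and its neighbour Ppp1r10, a regulator of protein phosphatase, by 0.21 (limma adjusted p = 1.1e-05). Mrpl18 rose by 0.24 and Tcp1, a subunit of the cytosolic chaperonin, by 0.33 (adjusted p = 1.3e-08). Their exons overlap, and with the strand setting unknown their reads may have been shared or left out. In the other direction, Mrpl50 fell by 0.23 while Zfp189, a zinc finger gene, rose by 0.32 (adjusted p = 0.0027), and Mrpl41 fell by 0.21 while Pnpla7, a lysophospholipase gene, rose by 0.40 (adjusted p = 2.4e-06). These are values of single pairs, chosen after they were seen, and no relation between neighbours was tested. The annotation holds 5 pseudogenes named after members, and 0 of them are in the table.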
